A study of Mus musculus with 37 samples.

Results

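The 53 genes described here encode the integrin subunits and tetraspanins of the mouse, together with dystroglycan (Dag1) and integrin-linked kinase (Ilk), and were measured on podocyte ribosomes in 2 models of diabetic kidney disease. They were taken by gene symbol from the 32108 genes of the count table and comprise 18 alpha integrin subunits, 8 beta integrin subunits, 25 tetraspanins (Cd9, Cd63, Cd81, Cd82 and Cd151 among them), Dag1 and Ilk.

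Integrins are pairs of an alpha and a beta subunit in the plasma membrane that bind matrix proteins, or surface proteins of other cells, and are tied to actin inside the cell by talins, kindlins and the complex of ILK with PINCH and parvin. Tetraspanins are small proteins that cross the membrane several times and gather integrins, proteases and signalling receptors into patches. Podocytes are the epithelial cells whose foot processes cover the capillaries of the kidney filter. The pair of Itga3 and Itgb1 is their main receptor for the laminin of the glomerular basement membrane, the tetraspanin Cd151 binds that pair tightly, and loss of Itga3, Itgb1, Cd151 or Ilk damages the filter in mice.

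Ribosome-bound RNA was isolated from kidney by translating ribosome affinity purification (TRAP) with a Cre recombinase driven by a podocyte promoter, per the names of the deposited tables. In the type 2 model, C57BL/6 mice carrying both eNOS-/- and db/db (no endothelial nitric oxide synthase, and a defective leptin receptor) gave 5 libraries at 3 months and 3 libraries at 6 months of age, and eNOS-/- mice without diabetes gave 5 and 4. All type 2 groups therefore lack eNOS. In the type 1 model, C57BL/6 mice given streptozotocin (STZ), a toxin of the insulin-producing beta cells, gave 5 libraries 3 weeks after treatment, at 3 months of age, and 5 libraries at 24 weeks, at 8 months of age; mice of the same ages with no STZ gave 4 and 5. Effects of STZ and of diabetes cannot be told apart. One further library held total RNA of whole kidney from an eNOS-/- mouse at 3 months. Whether each library came from its own animal is not given in the labels; the p-values rest on the spread among libraries, which may be technical.

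Total counts ranged from 6702120 to 37786025 in the 36 TRAP libraries, with the lowest in eNOS-/- db/db library 3 at 6 months, and came to 28033680 in the kidney library. The 10 podocyte markers, which include Nphs1, Synpo and Wt1, summed to 24210 to 37380 normalised CPM (counts scaled to library size) in the eNOS-/- TRAP libraries at 3 months, against 665.2 CPM in whole kidney. Markers of other kidney cells were lower in these TRAP libraries than in whole kidney, but far from absent. Proximal tubule markers summed to 4482 to 7815 CPM, against 16740 in kidney, and distal tubule and collecting duct markers to 1150 to 1472, against 2426. Endothelial markers had 189.8 to 240.9 CPM, against 418.9, and mesangial and smooth muscle markers 136.7 to 174.7, against 213.6. The part of other cells in TRAP levels was not tested. In such bulk RNA, fewer cells and less RNA per cell cannot be told apart. Of the 53 genes, 7 share over 10% of their exonic bases with another annotated gene, so their reads may be split or mixed. Ilk is the extreme case, with 89.7% of its exonic bases shared with Rrp8 and Taf10 on the opposite strand, and its 10 to 33 counts in the eNOS-/- libraries at 3 months cannot be read as its level. Itgam shares 68.7% with Gm49368.

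In podocyte TRAP RNA of eNOS-/- mice at 3 months, the most abundant of these mRNAs per length were a few matrix receptors and tetraspanins. Itgb5, the partner of Itgav in a receptor for vitronectin, led with 264 ± 51.5 deposited FPKM (SD, n = 5). It was followed by Cd81 (180.5 ± 40.7), the late endosomal tetraspanin Cd63 (171 ± 8.73), Dag1 (146 ± 42.6), which binds laminin through its sugar chains, and Itgb1 (136 ± 28.2). Itga3 averaged 98.7 ± 20.7 FPKM, Cd151 79.3 ± 15.2, Tspan2 73.2 ± 23.9, Tspan3 58.3 ± 3.82 and Cd82 50.4 ± 9.99 FPKM. Within this order the neighbours Dag1 and Itgb1, and Cd151 and Tspan2, differed by less than either SD. Of the 53 genes, 10 averaged above 50 FPKM, 9 lay between 10 and 50, 16 between 1 and 10, and 18 below 1 FPKM. The last class held the integrins typical of leukocytes and platelets, such as Itgam (0.209 FPKM), Itgal (0.341 FPKM) and Itgb3 (0.263 FPKM). Tspan10 had no count in any of these 5 libraries or in kidney.

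Set against the whole-kidney library, podocyte TRAP RNA was rich in Tspan2 and in the integrin subunits Itga2, Itgb5 and Itga3. Among 47 of the genes with at least 1 CPM on either side, 16 were more than 2-fold higher in TRAP and 7 more than 2-fold lower, beside 10.7% higher and 9.69% lower, 20.4% in all, of the 14306 genes at that level. Tspan2, which is best known from oligodendrocytes, averaged 73.2 FPKM in TRAP (libraries from 46.4 to 98.6), against 0.818 FPKM in kidney (exact 95% Poisson interval 0.671 to 0.986), a ratio of 79.4. Every TRAP library lay far above the kidney value. The ratio was 14.4 for Itga2, a collagen receptor subunit, 14.1 for Tspan15, a tetraspanin that binds the protease ADAM10, 13.1 for Itgb5, and 11.6 for Itga3.

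For Itga3 the levels were 71.7 to 125 FPKM in the 5 TRAP libraries and 8.41 FPKM in kidney (interval 7.96 to 8.87). Dag1 (5.42), Itgb1 (3.26), Cd151 (3.16), Cd81 (2.52) and Cd82 (2.2) were also past 2-fold, whereas the ratios of Itgav (1.46), Itgb8 (0.892) and Itga6 (1.1) were not. At the other end, the kidney level exceeded the TRAP level 2.36-fold for Itga1, 2.33-fold for Cd9, 2.22-fold for Tspan7, 1.94-fold for Itga8, the mesangial partner of Itgb1, and 1.92-fold for Cd63. Median ratios were 1.51 for 24 tetraspanins, 0.698 for 8 beta subunits and 0.584 for 14 alpha subunits, beside 1.01 for all genes at that level. One kidney library allows no test, the interval covers counting error only, and the libraries also differ in RNA type (TRAP RNA labelled polyA, kidney total RNA), so the cell type and the preparation cannot be told apart.

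**Figure D1:**
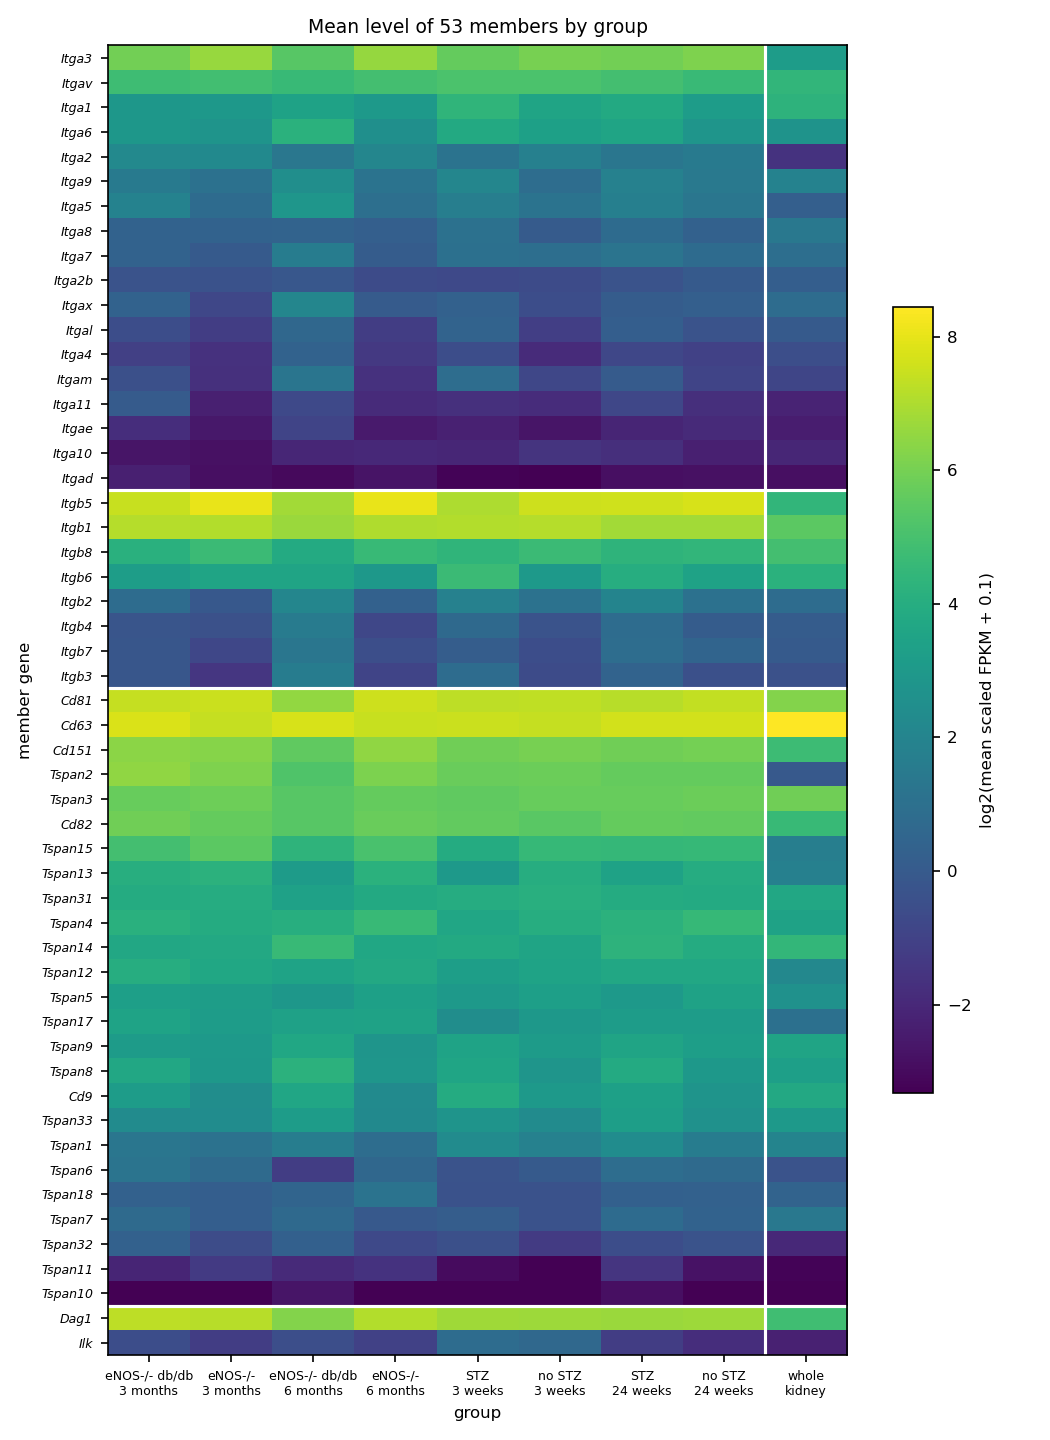
Mean level of each gene by group, as log2 of scaled FPKM plus 0.1 (colour), with genes in rows ordered within alpha subunits, beta subunits, tetraspanins and the other 2 genes by their level in eNOS-/- libraries at 3 months, and groups in columns. Itgb5, Itgb1, Cd81, Cd63 and Dag1 are high in all TRAP groups, and Tspan2 and Itga3 stand far above the kidney column.

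From here on, levels per library are scaled FPKM, which are CPM after TMM scaling over all 37 libraries, divided by gene length in kilobases. Changes are log2 fold changes, diabetic over control, from edgeR's quasi-likelihood test, and a gene is called when its Benjamini-Hochberg adjusted p over all genes tested is under 0.05.

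At 3 months the type 2 model showed few changes in these genes: Itga3 and Itgb8 fell, and Itga5 and Itga11 rose. The 4 calls among 52 tested genes (Tspan10 did not pass the filter on low counts) make 7.69%, beside 3.99% of all 17180 genes tested. The median log2 change of the 52 was 0.21, beside 0.04 for all genes tested. Itga3 had 63.9, 66.7, 63.3, 55.8 and 50.6 scaled FPKM in eNOS-/- db/db libraries 1 to 5, against 124, 109, 94.4, 74.7 and 88.2 in eNOS-/- libraries 1 to 5. All diabetic libraries lay below all control libraries (log2 change -0.71 ± 0.14 SE, adjusted p = 0.00611).

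Itgb8, which pairs with Itgav to release active TGF-beta from its latent form, had 18, 17.3, 19, 16 and 16.7 scaled FPKM in eNOS-/- db/db libraries, against 27.6, 27.8, 25.2, 26 and 21.7 in eNOS-/- libraries (log2 change -0.56 ± 0.12 SE, adjusted p = 0.00892). Its groups did not overlap either. Itgb5 went the same way without a call, with 171, 213, 164, 159 and 162 scaled FPKM in eNOS-/- db/db libraries and 329, 296, 239, 222 and 228 in eNOS-/- libraries (log2 change -0.60 ± 0.18 SE, adjusted p = 0.0693), again with no overlap. In all, 4 of the 52 genes had every diabetic library above every control library and 3 had every one below, beside 2.96% and 3.69% of all genes tested.

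Itga11, a collagen receptor subunit of fibroblasts and other stromal cells, was near the detection limit in controls and rose 8.71-fold. It had 1.06, 1.11, 0.746, 0.904 and 0.861 scaled FPKM in eNOS-/- db/db libraries, against 0.123, 0.0785, 0.28, 0.0242 and 0.0287 in eNOS-/- libraries (log2 change 3.12 ± 0.69 SE, adjusted p = 0.0125), and the groups did not overlap. At 6 months Itga11 was not called and its groups overlapped. It then had 0.619, 0.853 and 0.0497 scaled FPKM in eNOS-/- db/db libraries, against 0.424, 0.102, 0.0557 and 0.111 in eNOS-/- libraries. Itga5, the fibronectin receptor subunit, had 2.33, 2.56, 1.75, 6.91 and 4.39 scaled FPKM in eNOS-/- db/db libraries, against 1.62, 1.08, 2.00, 1.67 and 1.71 in eNOS-/- libraries (log2 change 1.15 ± 0.28 SE, adjusted p = 0.0251). Here the diabetic libraries 4 and 5 were by far the highest, library 3 lay within the control range, and the call was lost in 9 of 20 alternatives.

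Libraries 4 and 5 of the eNOS-/- db/db group at 3 months stood apart in the leukocyte integrins too. Itgam, the alpha subunit of a complement receptor on macrophages, had 0.059, 0.283, 0.147, 1.59 and 1.11 scaled FPKM in eNOS-/- db/db libraries 1 to 5, against 0.111, 0.132, 0.241, 0.234 and 0.331 in eNOS-/- libraries. Itgb2, the beta subunit of leukocytes, had 0.76, 0.287, 0.592, 4.44 and 2.25 and Itgax, of dendritic cells and macrophages, 0.217, 0.23, 0.143, 3.21 and 2.1 in the diabetic libraries, against 1.31, 0.627, 0.698, 0.745 and 0.869 for Itgb2 and 0.22, 0.506, 0.526, 0.542 and 0.547 for Itgax in controls. Only libraries 4 and 5 exceeded the control range in all 3 genes, and none of the 3 was called. The 10 macrophage and leukocyte markers summed to 280.2 and 148.7 CPM in libraries 4 and 5, and to 42.3 to 52.7 CPM in diabetic libraries 1 to 3, beside 56.6 to 78.7 CPM in controls, with none of the markers at 0. Of 8 mesangial and smooth muscle markers 2 were called higher at this age. The 8 summed to 771.8 and 490.7 CPM in libraries 4 and 5 and 206.7 to 275.2 CPM in libraries 1 to 3. Controls had 136.7 to 174.7 CPM, so that every diabetic library was higher, as it was for the injured tubule markers. The 5 injured tubule markers, all called higher, summed to 184.5 and 99.8 CPM in the same libraries, to 11.3 to 30.5 CPM in libraries 1 to 3, and to 7.05 to 8.65 CPM in controls, and the podocyte markers to 14350 and 16460 CPM, beside 25890 to 28340 in libraries 1 to 3. Without both libraries 1 of the 52 genes was called, Itga11, beside 418 of all 16774 genes tested. The uncalled log2 changes of Itga3, Itgb8 and Itga5 were then -0.60, -0.51 and 0.45. Those of Itgam, Itgax and Itgb2 turned negative (-0.34, -1.28 and -0.64). That turn follows from leaving out the libraries in which these genes were highest, and is no separate result. The part of other cells in these values was not tested.

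At 6 months 24 of the 52 tested genes were called, 15 higher and 9 lower. That is 46.2%, beside 22.9% of all 17180 genes tested (11.2% higher and 11.7% lower). The podocyte receptors Itga3 and Itgb5 and the tetraspanins Cd151 and Cd81 fell, while the laminin receptor pair Itga6 and Itgb4, the fibronectin receptor subunit Itga5, the leukocyte subunits Itgam, Itgb2, Itgal and Itga4, and Itgb3 rose. The median log2 change was 1.46 over 18 alpha subunits, 1.19 over 8 beta subunits and -0.37 over 24 tetraspanins, beside -0.01 over all genes tested. Every diabetic library exceeded every control library for 19 of the 52 genes and lay below it for 12, beside 14.6% and 14.8% of all genes. Single diabetic libraries weigh heavily on the count. Total counts and podocyte marker sums were both at their minimum in eNOS-/- db/db library 3. Without it 11 genes were called, 7 higher and 4 lower, beside 1932 of all 17967 genes tested. Without library 1 the number was 15, beside 3100 of 17912, and without library 2 it rose to 34, beside 5350 of 18177. With all libraries, 3934 of all 17180 genes were called. Among the genes that lost their call without library 3 were Itgam, Itgb3, Cd151, Tspan6, Tspan9, Tspan13, Tspan14 and Tspan33.

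Among the matrix receptors of podocytes, Itga3 had 41, 43.6 and 38.8 scaled FPKM in eNOS-/- db/db libraries 1 to 3, against 81, 99.8, 109 and 87.3 in eNOS-/- libraries 1 to 4. The diabetic values were close together and about as far below the controls in each library, a 2.32-fold lower level (log2 change -1.21 ± 0.18 SE, adjusted p = 0.000244). Itgb5 had 112, 149.6 and 70.6 scaled FPKM in eNOS-/- db/db libraries, against 215, 271, 304 and 262 in eNOS-/- libraries (log2 change -1.27 ± 0.23 SE, adjusted p = 0.00104). Itgb8 had 17.8, 13.3 and 13 in eNOS-/- db/db libraries, against 21.8, 22.4, 27.1 and 25.6 in eNOS-/- libraries (log2 change -0.74 ± 0.14 SE, adjusted p = 0.00213). Neither overlapped between groups, and all 3 genes stayed called whichever single library was left out. Dag1 had 82.8, 108 and 40.5 scaled FPKM in eNOS-/- db/db libraries, against 118, 151, 150.2 and 120.2 in eNOS-/- libraries (log2 change -0.83 ± 0.29 SE, adjusted p = 0.0434), with library 3 lowest. Its call was lost in 11 of 16 alternatives. Itgb1, the common beta subunit, was not called, at 109, 129.6 and 68.7 scaled FPKM in eNOS-/- db/db libraries and 109, 142, 150.5 and 124 in eNOS-/- libraries (log2 change -0.38 ± 0.22 SE, adjusted p = 0.223), and neither was Itgav (log2 change -0.34 ± 0.16 SE, adjusted p = 0.135) or Itga8 (log2 change 0.19 ± 0.44 SE, adjusted p = 0.788).

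The laminin receptor subunits Itga6, Itgb4 and Itga7 moved the other way. Itga6, which pairs with Itgb4 in hemidesmosomes of epithelia and with Itgb1 elsewhere, had 20.2, 11.5 and 22.5 scaled FPKM in eNOS-/- db/db libraries, against 5.24, 5.76, 5.95 and 5.52 in eNOS-/- libraries. That 3.18-fold rise had the lowest p of the 52 genes (log2 change 1.67 ± 0.22 SE, adjusted p = 0.00011). Itgb4 had 2.59, 1.42 and 4.47 scaled FPKM in eNOS-/- db/db libraries, against 0.411, 0.517, 0.400 and 0.532 in eNOS-/- libraries, 5.97-fold higher (log2 change 2.58 ± 0.47 SE, adjusted p = 0.00127). Itga7 had 3.84, 2.27 and 2.89 in eNOS-/- db/db libraries, against 0.479, 1.15, 1.3 and 0.947 in eNOS-/- libraries (log2 change 1.61 ± 0.38 SE, adjusted p = 0.00628). Itga6 lies at chr2:71745616-71858416, plus strand, and Itgb4 at chr11:115974709-116008412, plus strand (GRCm38). None of these 3 genes overlapped between groups. In absolute level Itgb4 remained far below Itgb1 in every library.

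Some receptor subunits for fibronectin and related ligands rose as well, while Itgb1, Itgav and Itga8 were not called and Itgb5 and Itgb8 fell. Itga5 had 7.54, 7.41 and 6.2 scaled FPKM in eNOS-/- db/db libraries, against 2.02, 1.72, 1.72 and 2.04 in eNOS-/- libraries, with all diabetic libraries about equally high (log2 change 1.90 ± 0.34 SE, adjusted p = 0.00107). Itgb3, a partner of Itgav, had 2.33, 1.11 and 5.46 in eNOS-/- db/db libraries, against 0.369, 0.49, 0.597 and 0.251 in eNOS-/- libraries. Its log2 change was 2.78 ± 0.70 SE (adjusted p = 0.00951), with library 3 highest. Itga9, a receptor subunit for tenascin and osteopontin, had 4.74, 3.29 and 8.44 in eNOS-/- db/db libraries, against 1.82, 2.68, 2.23 and 1.87 in eNOS-/- libraries (log2 change 1.33 ± 0.43 SE, adjusted p = 0.0325), and its call was lost in 6 of 16 alternatives. Itgb6, an epithelial activator of TGF-beta, was not called (log2 change 0.59 ± 0.26 SE, adjusted p = 0.1), although its 3 diabetic libraries (12.4, 11 and 11.8) all exceeded the controls (5.17, 9.03, 8.07 and 8.51).

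Of the integrins typical of leukocytes, Itgam rose 10.1-fold, with 2.23, 0.827 and 3.68 scaled FPKM in eNOS-/- db/db libraries, against 0.0703, 0.387, 0.254 and 0.158 in eNOS-/- libraries (log2 change 3.34 ± 0.84 SE, adjusted p = 0.0098). Itgb2 had 4.55, 2.77 and 4.89 in eNOS-/- db/db libraries, against 1.32, 1.43, 0.983 and 0.926 in eNOS-/- libraries (log2 change 1.79 ± 0.61 SE, adjusted p = 0.0422). Itgal, its partner on lymphocytes, rose (log2 change 2.03 ± 0.69 SE, adjusted p = 0.0403), as did Itga4, which binds Vcam1 (log2 change 2.02 ± 0.67 SE, adjusted p = 0.0382). All diabetic libraries exceeded all controls in these 4 genes. The calls of Itgb2, Itgal and Itga4 were each lost in 7 or 8 of 16 alternatives, and Itgax (log2 change 2.11 ± 0.81 SE, adjusted p = 0.0692) was not called. These mRNAs stayed low, and the highest value of Itgam, Itgb2, Itgal or Itga4 in a library of that age was 4.89 scaled FPKM, for Itgb2 in eNOS-/- db/db library 3.

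Tetraspanins were divided, with 5 called higher and 5 lower of 24. Cd151 had 50.9, 67.7 and 23.5 scaled FPKM in eNOS-/- db/db libraries, against 70.6, 90.7, 107 and 94.6 in eNOS-/- libraries, no overlap but a wide spread among the diabetic libraries (log2 change -0.95 ± 0.26 SE, adjusted p = 0.0137). The call was lost without library 3. Cd81, a partner of many integrins and of B cell and viral receptors, had 100.1, 112 and 63.4 in eNOS-/- db/db libraries, against 179, 189, 208 and 166 in eNOS-/- libraries (log2 change -1.03 ± 0.24 SE, adjusted p = 0.00525). Tspan13 (log2 change -1.08 ± 0.29 SE, adjusted p = 0.0137), Tspan5, which guides ADAM10 to its substrates (log2 change -0.47 ± 0.16 SE, adjusted p = 0.0422), and Tspan6 (3.99-fold lower, adjusted p = 0.0288) were also called lower. Tspan6 rested on few counts in the diabetic libraries (11, 31 and 0), and the Tspan5 call was lost in 13 of 16 alternatives.

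Among the tetraspanins that rose, Cd9, which is abundant in parietal and tubular epithelium, had 14.2, 10.8 and 12.1 scaled FPKM in eNOS-/- db/db libraries, against 3.95, 5.68, 5.85 and 4.07 in eNOS-/- libraries (log2 change 1.32 ± 0.29 SE, adjusted p = 0.00432). Tspan8, an epithelial tetraspanin, had 16.6, 9.98 and 29 in eNOS-/- db/db libraries, against 6.23, 8.04, 7.41 and 7.07 in eNOS-/- libraries (log2 change 1.34 ± 0.27 SE, adjusted p = 0.00255). Both kept their calls in all 16 alternatives. Tspan9 (0.86 ± 0.23), Tspan14 (0.89 ± 0.24) and Tspan33 (0.89 ± 0.24, log2 change ± SE) rose by smaller amounts, with adjusted p of 0.0118, 0.0126 and 0.0124; Tspan14 and Tspan33, like Tspan5 and Tspan15, belong to the group that escorts ADAM10. The abundant Cd63 (log2 change 0.30 ± 0.14 SE, adjusted p = 0.131), Cd82 (log2 change -0.43 ± 0.16 SE, adjusted p = 0.0563) and Tspan2 (log2 change -0.91 ± 0.39 SE, adjusted p = 0.0943) were not called. Ilk was not called either (log2 change 0.65 ± 0.50 SE, adjusted p = 0.361), and its reads are uncertain for the overlap given above.

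**Figure D2:**
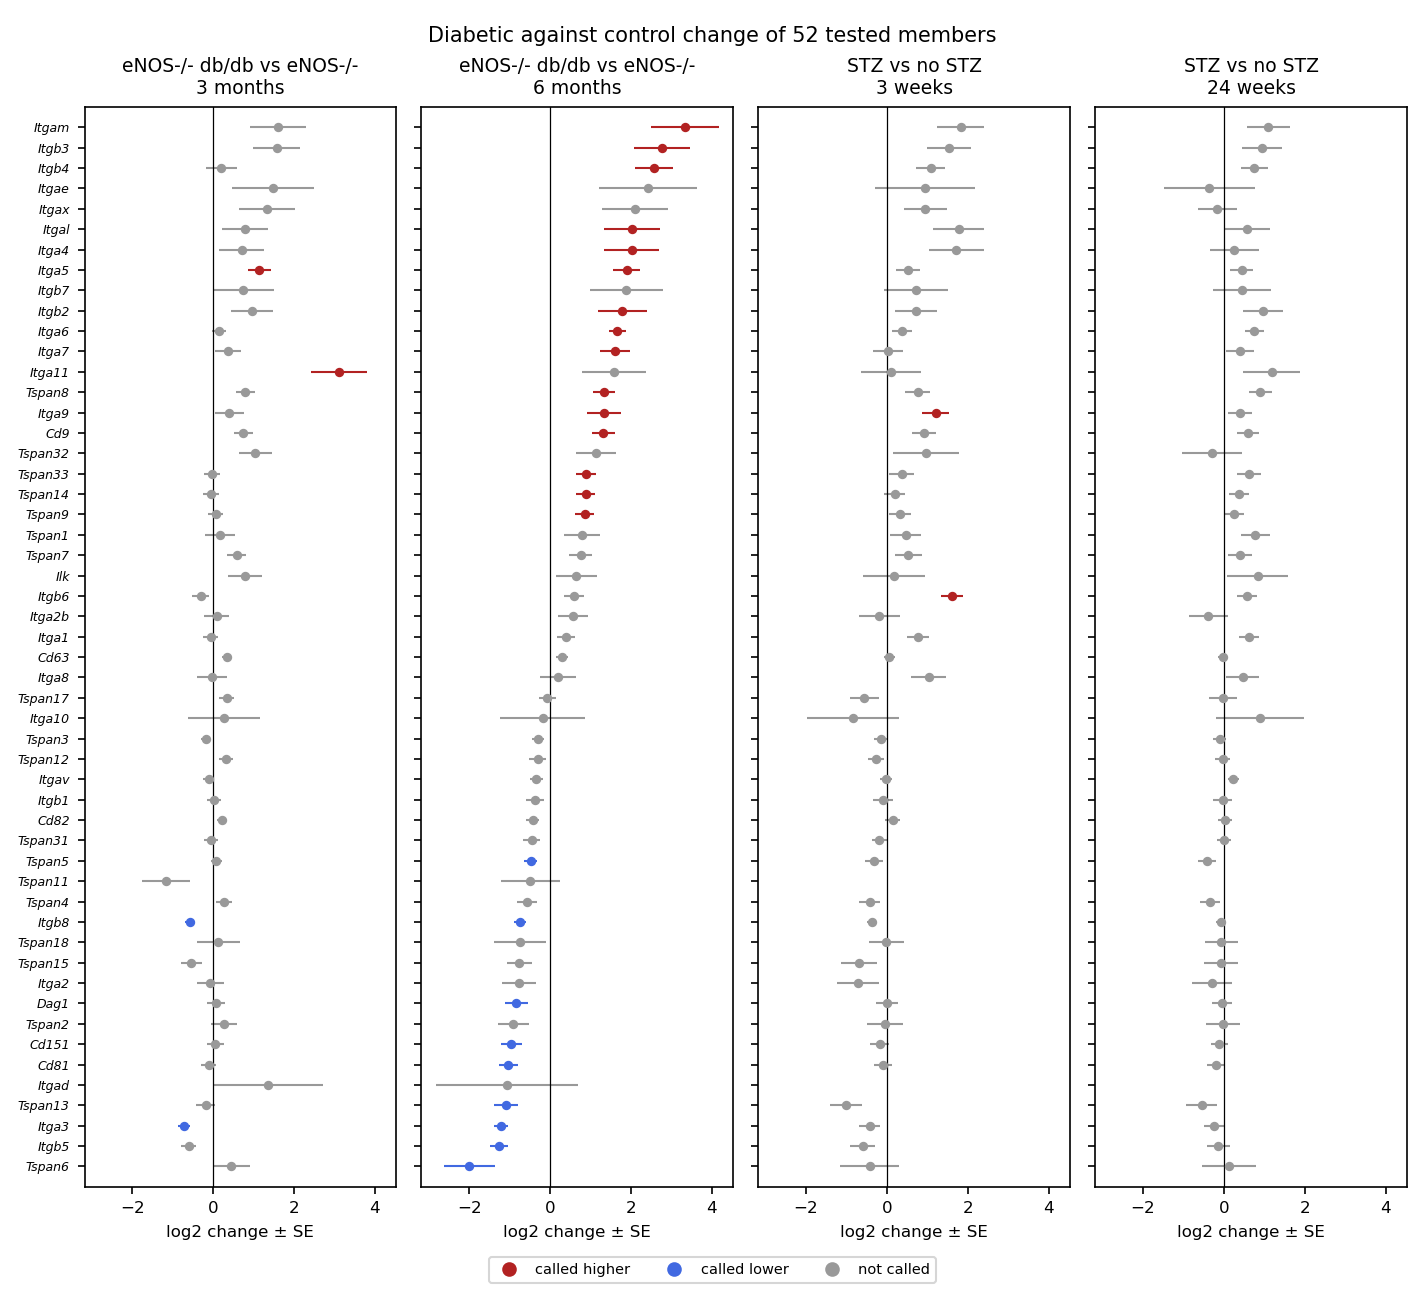
Log2 change with its standard error (x axis) of the 52 genes tested in the type 2 model (rows, ordered by the change at 6 months), diabetic over control, in the 4 comparisons, with called genes in red (higher) or blue (lower). At 6 months 15 are red and 9 blue, and at 24 weeks of STZ none is coloured; genes without a point in the STZ panels did not pass the filter there.

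**Figure D3:**
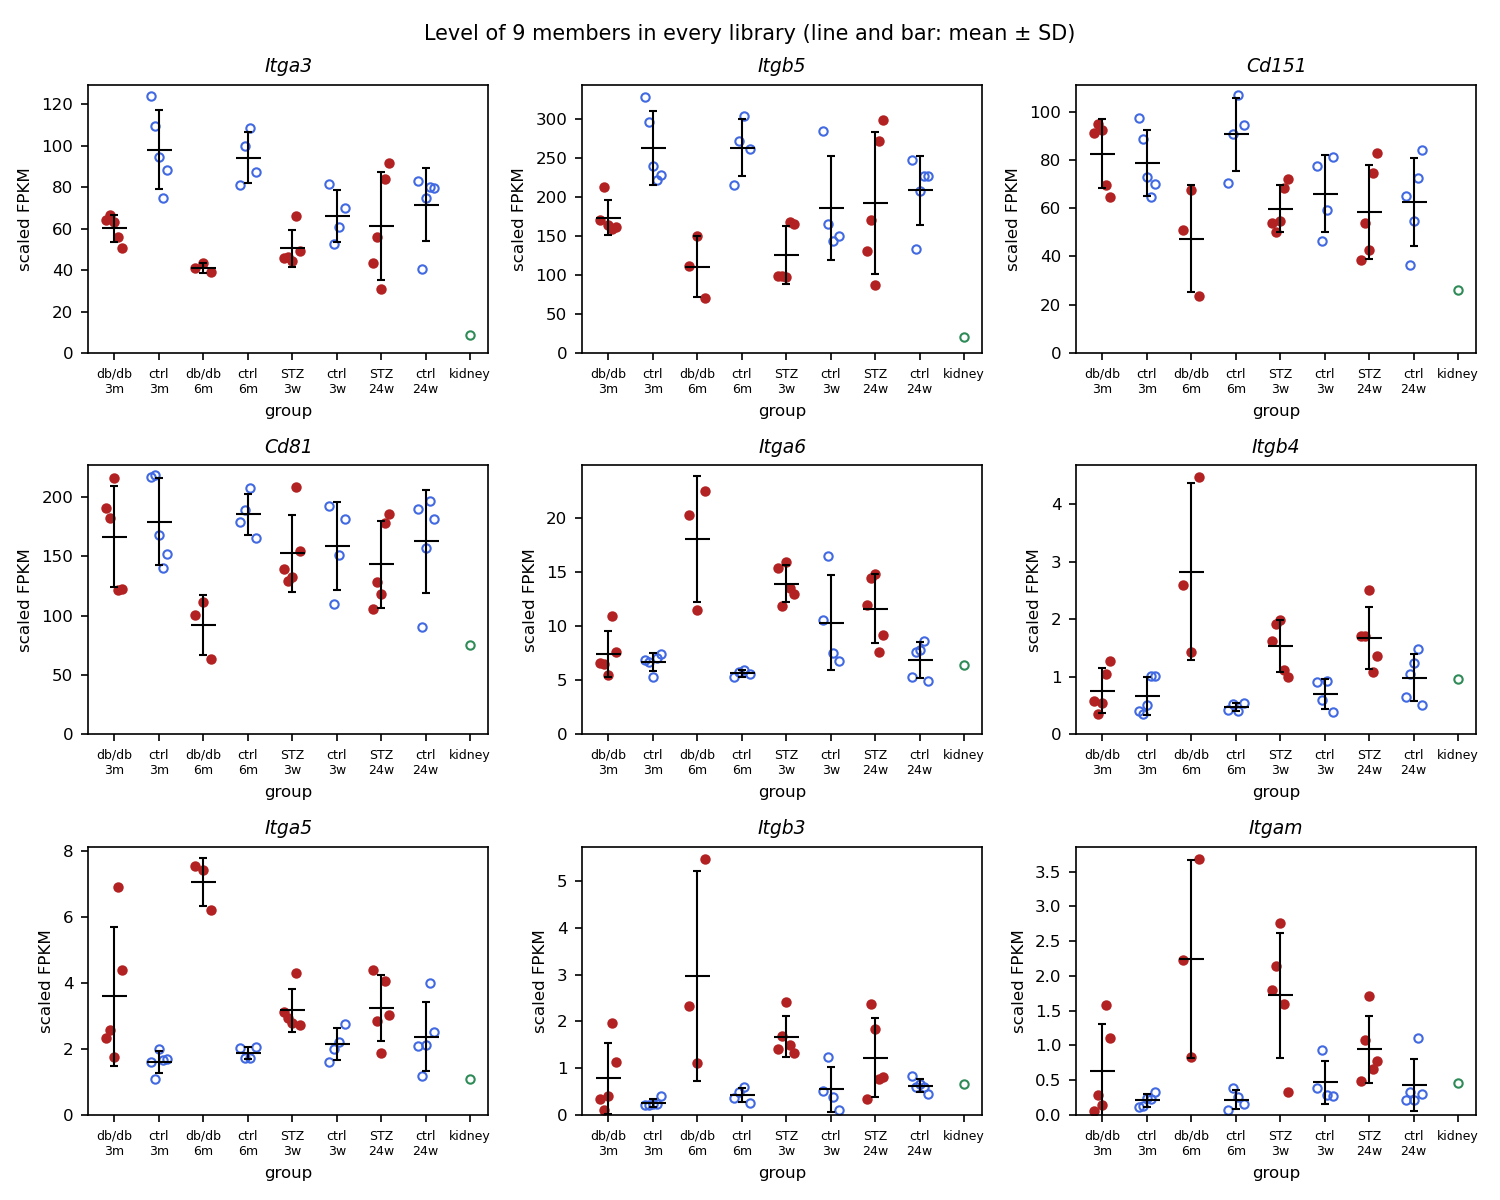
Scaled FPKM (y axis) of 9 genes in every library, by group, with diabetic libraries filled, controls open and whole kidney in green; lines and bars are means ± SD, cut at 0. The 3 db/db libraries at 6 months lie below all controls of that age for Itga3, Itgb5, Cd151 and Cd81, and above them for Itga6, Itgb4, Itga5, Itgb3 and Itgam.

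The sequences before the start sites of 2 genes called lower and 2 called higher at 6 months are shown here. They are shown because these genes moved in opposite directions in the same libraries. They had the lowest p of their direction among the 44 of 53 genes with a window in the RefSeq promoter set used. Itga6 and Itgb4 had a lower p than Tspan8 but no window in that set. Itga3 lies at chr11:95044474-95076801, minus strand, Itgb5 at chr16:33829665-33949153, plus strand, Itga5 at chr15:103344289-103366763, minus strand, and Tspan8 at chr10:115817284-115849893, plus strand (all GRCm38). Each stretch is the 250 bases before the RefSeq start on GRCm38.p6, in the direction of transcription, from chr11:95076715-95076964, minus strand, for Itga3, chr16:33829415-33829664, plus strand, for Itgb5, chr15:103366792-103367041, minus strand, for Itga5, and chr10:115817034-115817283, plus strand, for Tspan8. Capitals mark matches, on either strand, to the motifs searched, which were the GC box (GGGCGG), the CACCC element, the TATA box (TATAAA), the CCAAT box, the AP-1 site (TGANTCA), a homeobox core (TAATTA) and an ETS-type purine motif (GAGGAA).
Itga3: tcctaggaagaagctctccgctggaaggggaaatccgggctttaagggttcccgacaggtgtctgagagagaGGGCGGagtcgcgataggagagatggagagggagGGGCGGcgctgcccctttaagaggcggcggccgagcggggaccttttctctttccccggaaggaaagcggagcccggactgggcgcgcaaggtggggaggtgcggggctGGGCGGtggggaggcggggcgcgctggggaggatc
Itgb5: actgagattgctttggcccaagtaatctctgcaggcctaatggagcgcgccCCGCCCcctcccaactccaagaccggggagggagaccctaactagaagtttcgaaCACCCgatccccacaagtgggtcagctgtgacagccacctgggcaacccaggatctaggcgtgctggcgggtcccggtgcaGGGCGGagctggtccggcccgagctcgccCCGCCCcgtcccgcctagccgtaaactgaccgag
Itga5: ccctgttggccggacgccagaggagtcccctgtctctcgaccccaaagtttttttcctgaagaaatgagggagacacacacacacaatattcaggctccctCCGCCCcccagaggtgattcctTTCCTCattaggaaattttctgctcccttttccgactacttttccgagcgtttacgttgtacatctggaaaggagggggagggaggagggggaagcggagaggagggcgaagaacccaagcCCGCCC
Tspan8: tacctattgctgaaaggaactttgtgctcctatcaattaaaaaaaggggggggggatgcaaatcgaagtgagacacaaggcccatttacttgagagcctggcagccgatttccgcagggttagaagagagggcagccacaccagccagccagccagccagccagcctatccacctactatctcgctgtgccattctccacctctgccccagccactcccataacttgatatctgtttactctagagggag
Itga3 and Itgb5 each held 3 GC boxes and Itga5 held 2, and Tspan8 held none of the 7 motifs. The last 87 bases of the Itga3 stretch, which hold its last GC box, lie within the gene span given above. Itga3 had 2 windows in the set, and the one nearest the annotated start was used. Of 32851 such RefSeq windows of the same length, 32.7% held a GC box, 52% the CACCC element, 12.4% the TATA box, 33.8% the CCAAT box, 6.75% the AP-1 site, 4.84% the homeobox core and 23.3% the purine motif; matches could overlap each other. The CACCC element occurred 1 time in Itgb5 and the purine motif 1 time in Itga5. The bases were 67.6% G or C for Itga3, 65.2% for Itgb5, 55.6% for Itga5 and 52.4% for Tspan8, beside a median of 52.4% over all windows. A match is a description of letters and not a binding site.

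The calls at 6 months were also counted by the side of the kidney comparison on which a gene lay, with no test between the classes. Among the 16 genes past 2-fold on the podocyte side, 0 were called higher and 7 lower, beside 3.2% and 32.8% of the 1532 genes of that class. Of 24 genes within 2-fold, 11 rose and 2 fell, beside 12.4% and 10.8% of 11386 such genes tested. Of the 7 genes more than 2-fold lower in TRAP, 4 rose and 0 fell, beside 17.8% and 16.1% of 1356. The 7 that fell in the first class were Itga3, Itgb5, Dag1, Cd151, Cd81, Tspan13 and Tspan6. The ratio to kidney rests on the 3-month controls and shares no library with the 6-month comparison.

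**Figure D4:**
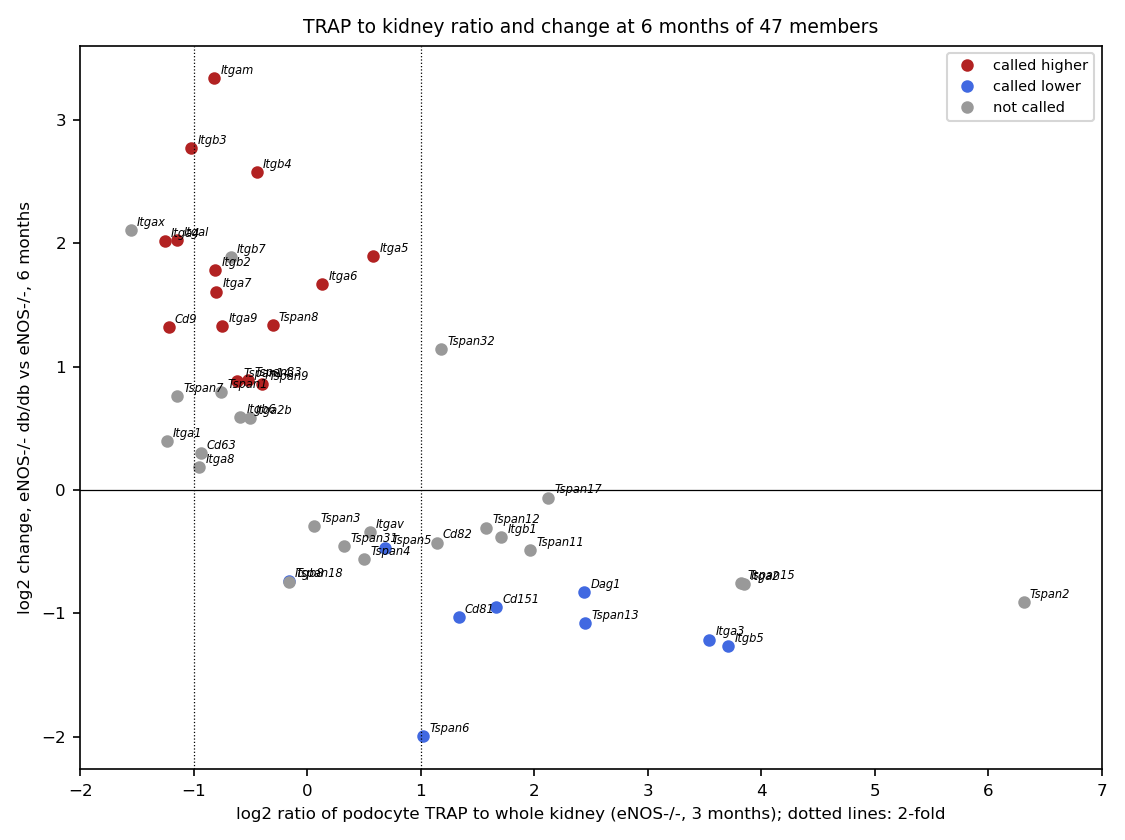
Log2 ratio of TRAP to whole kidney in eNOS-/- mice at 3 months (x axis, dotted lines at 2-fold) and log2 change of eNOS-/- db/db over eNOS-/- libraries at 6 months (y axis) for 47 genes, coloured by call. All 16 genes right of the right-hand dotted line are blue or grey, and 4 of the 7 left of the left-hand one are red.

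Markers of several cell types moved in the same libraries. At 6 months all 10 podocyte markers were called lower, with sums of 2935 to 15550 CPM in eNOS-/- db/db libraries, against 26110 to 29990 CPM in eNOS-/- libraries. Of 10 macrophage and leukocyte markers 5 were called higher (158.2 to 260.6 CPM in eNOS-/- db/db libraries, against 68.0 to 115.8 in eNOS-/- libraries), and all 5 injured tubule markers were (117.2 to 261.9 CPM, against 9.52 to 14.8). Of 8 mesangial and smooth muscle markers 5 were called higher (264.2 to 732.2 CPM in eNOS-/- db/db libraries, against 151.4 to 197.2 in eNOS-/- libraries), and 4 of 6 parietal epithelial markers were (208.8 to 397 CPM, against 105.3 to 139.3). No marker of these lists was at 0 in a whole group. Proximal tubule markers had 5 of 8 called lower, endothelial markers 1 of 8 higher and 1 lower, distal tubule and collecting duct markers 1 of 7 tested lower, lymphocyte markers 1 of 5 tested higher, and platelet markers 1 of 3 tested higher. The part of these cells in the changes of integrins and tetraspanins was not tested.

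The partners of these proteins changed on both sides of the membrane at 6 months. Of 31 tested matrix ligands 17 rose and 5 fell, with a median log2 change of 0.72, beside 11.2% higher and 11.7% lower of all genes tested, a background that holds for each list at this age. Osteopontin, Spp1, a ligand of Itga9 and of Itgav receptors, rose (log2 change 2.98 ± 0.34 SE, adjusted p = 6.09e-05). Nephronectin, Npnt, a ligand of Itga8 made by podocytes (-1.51 ± 0.27, adjusted p = 0.001), and Lamb2, the beta chain of the mature filter laminin (-1.33 ± 0.25, adjusted p = 0.00166), fell. Of 12 surface ligands and activators of integrins 7 rose and 0 fell, among them Vcam1 (3.62 ± 0.64) and Icam1 (2.01 ± 0.42), the ligands of the Itga4 and Itgb2 receptors.

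Inside the cell, 7 of 29 adhesion complex genes rose and 6 fell, beside the same 11.2% and 11.7% of all genes. The kinase Src (1.59 ± 0.25), the epithelial kindlin Fermt1 (1.09 ± 0.22) and Parvg, the parvin of blood cells (3.38 ± 0.74), rose, and Tns2, a tensin of podocyte adhesions, fell (-1.67 ± 0.27 SE). Of 20 tested genes of the dystroglycan complex and its glycosylation 2 rose, a share near that of all genes, and 5 fell, with the sarcoglycan Sgcb (-1.29 ± 0.26) lower. Of 13 tetraspanin partners and tetraspanins outside the symbols used, 6 rose and 0 fell, with the protease Mmp14 (3.21 ± 0.61) and the Cd9 partner Ptgfrn (2.29 ± 0.48) at the lowest p. Vcam1 is also one of the injured tubule markers, and Cd44 and Cldn1 of the partner list are parietal markers.

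The same lists at 3 months held 4 matrix ligands called higher and 1 lower, 5 surface ligands higher, 1 adhesion complex gene (Zyx) and 1 partner (Cd44) higher, and 0 dystroglycan genes. Spp1 (log2 change 2.66 ± 0.29 SE) was already among them. All lists stood beside 2.03% of all genes called higher and 1.96% lower at 3 months.

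A difference between the diabetic effects at 6 and at 3 months was called for no gene. The difference of the 2 effects had 0 calls among the 52 genes and 0 among all 17180 tested (0.00%) with edgeR, while 19 of the 52 had an unadjusted p under 0.05, 7 higher and 12 lower at 6 months, beside 18.9% of all genes. DESeq2 called 3 of them and 576 of 13162 genes in all. Itga6 had the lowest p (log2 difference 1.52 ± 0.28 SE, adjusted p = 0.0885), followed by Itgb4 (2.37 ± 0.60, adjusted p = 0.118). Their 3-month changes were 0.15 ± 0.18 and 0.20 ± 0.38. Without libraries 4 and 5 of the 3-month eNOS-/- db/db group, 21 of the 52 were called, beside 2090 of all 16774 genes tested. Of these, 17 had a higher and 4 a lower effect at 6 months. Those libraries stood apart in the values above, so leaving them out is no independent check. Without eNOS-/- db/db library 2 at 6 months 14 were called, beside 1911 of 18177.

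After 3 weeks of STZ, Itgb6 and Itga9 rose and no gene of the 50 tested fell. These 2 calls make 4%, beside 6.50% of all 16279 genes tested; Itgad, Tspan10 and Tspan11 did not pass the filter on low counts. Itgb6, the beta subunit that epithelia use with Itgav to activate TGF-beta, had 27.1, 27.2, 29.6, 20.6 and 23.9 scaled FPKM in STZ libraries 1 to 5, against 6.96, 11.8, 7.91 and 5.95 in libraries 1 to 4 with no STZ. Every STZ library lay well above every control, 3.05-fold on average (log2 change 1.61 ± 0.28 SE, adjusted p = 0.00132), and the call held in all 18 alternatives. Itga9 had 4.53, 5.07, 5.32, 3.78 and 2.01 scaled FPKM in STZ libraries, against 1.32, 3.24, 1.49 and 0.863 with no STZ (log2 change 1.21 ± 0.33 SE, adjusted p = 0.0292), with STZ library 5 and control library 2 overlapping. Its call was lost in 7 of 18 alternatives, 6 of which left out 1 library (STZ 1, 2 or 3, or control 1, 3 or 4). In 5 genes all STZ libraries exceeded all controls, beside 4.70% of all genes, and in 0 genes all lay below, beside 3.42%.

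The podocyte receptors were not called at 3 weeks. Itga3 had 46, 46.2, 44.4, 66 and 49.3 scaled FPKM in STZ libraries, against 81.5, 52.3, 60.6 and 69.8 with no STZ (log2 change -0.43 ± 0.26 SE, adjusted p = 0.362), with overlap. Itgb5 had 98.4, 99, 97.8, 168 and 165 in STZ libraries, against 284, 165, 143 and 149.9 with no STZ (log2 change -0.60 ± 0.30 SE, adjusted p = 0.262), again with overlap. STZ libraries 4 and 5 had the higher Itgb5 levels of their group, and podocyte markers summed to 22990 and 21220 CPM in them, beside 10190 to 11260 CPM in STZ libraries 1 to 3 and 11590 to 25120 CPM with no STZ. Of the 50 genes, 13 had an unadjusted p under 0.05, 11 higher and 2 lower, beside 20.8% of all genes, and 11 of these were not called, among them Itgb8, Cd9, Itgb4 and Itga1 with log2 changes of -0.38 ± 0.12, 0.92 ± 0.29, 1.08 ± 0.36 and 0.77 ± 0.26 and adjusted p of 0.071, 0.0606, 0.0732 and 0.0837. Cd151 (-0.18 ± 0.23) and Cd81 (-0.09 ± 0.22) were near 0.

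STZ libraries 4 and 5 differed from the other 3 at 3 weeks. They held 14320 and 18044 genes with a count, beside 19712 to 21050 in STZ libraries 1 to 3 and 15558 to 16362 in the controls. Macrophage and leukocyte markers, of which 5 of 10 were called higher, summed to 88.5 and 112.1 CPM in libraries 4 and 5 and 212.3 to 291 CPM in libraries 1 to 3, against 44.0 to 98.9 CPM with no STZ. Injured tubule markers, 4 of 5 higher, summed to 67.7 to 174.1 CPM in STZ libraries, against 8.06 to 16.5 with no STZ, and 0 of 10 podocyte markers was called. Parietal epithelial markers, 2 of 6 called higher, summed to 195.2 to 283.3 CPM in STZ libraries, against 117.0 to 177.1 with no STZ. The groups did not overlap in these sums, nor in those of the injured tubule and proximal tubule markers. Of 8 proximal tubule markers 5 were called lower (3479 to 6070 CPM in STZ libraries, against 6991 to 13770 with no STZ), and of 8 mesangial markers 2 were called higher (210.5 to 584.7 CPM, against 190.7 to 419.9). The part of these cells in the values of Itgb6 and Itga9 was not tested. The number of calls among the 50 genes was 6 without library 4 and 6 without library 5, beside 1350 and 1234 of all 16341 genes. It was 7 without control library 2, beside 1006 of 16926. Without STZ library 1, 2 or 3 or control library 4 it was 1, beside 611 to 901 genes in all. Of the partner lists, 10 of 31 matrix ligands rose and 1 fell, 2 of 12 surface ligands rose (Vcam1 and Icam1), 1 of 29 adhesion complex genes (Fermt1) and 3 of 13 partners (Mmp14, Ptgfrn and Cldn1) rose, and 1 of 20 dystroglycan genes (B3galnt2) fell, beside 3.78% higher and 2.72% lower of all genes.

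After 24 weeks of STZ none of the 50 genes was called, beside 0.897% of all 16279 genes tested with edgeR, 0.448% higher and 0.448% lower; DESeq2 and limma on FPKM called 0 of them as well. At an unadjusted p under 0.05 there were 8, beside 10.7% of all genes, all higher: Itga6, Tspan8, Itga1, Itgb6, Itgb4, Cd9, Tspan33 and Tspan1. Itga6 had 12, 14.5, 14.8, 7.55 and 9.19 scaled FPKM in STZ libraries 1 to 5, against 5.29, 7.58, 7.78, 8.61 and 4.88 with no STZ (log2 change 0.75 ± 0.23 SE, adjusted p = 0.148). Itga3 had 43.4, 55.9, 30.6, 83.9 and 91.6 in STZ libraries, against 82.7, 40.5, 74.6, 80.1 and 79.4 with no STZ (log2 change -0.24 ± 0.24 SE, adjusted p = 0.829), where STZ libraries 4 and 5 were the highest of all and library 3 the lowest. Podocyte markers ranged from 5457 to 24390 CPM in STZ libraries, against 11130 to 26710 CPM with no STZ. For every one of the 50 genes the groups overlapped, beside 1.79% of all genes with all STZ libraries above and 1.54% below. Among the partner lists 3 matrix ligands were called, all higher, Spp1 and Thbs1 among them, and 0 genes of the other lists. The difference between the STZ effects at 24 and at 3 weeks had no call (0 of 50, and 0.00% of all genes with edgeR); 1 of the 50 had an unadjusted p under 0.05, beside 6.71% of all genes, and this was Itgb6 (log2 difference -1.03 ± 0.36 SE, adjusted p = 0.608), and DESeq2 called 0.

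Between the models, edgeR called a difference in the early diabetic effect for 1 of 52 tested genes, Itgb6, beside 0.940% (0.373% higher and 0.567% lower) of 18511 genes in a fit of all 36 TRAP libraries. Its log2 change at 3 months in the type 2 model minus that at 3 weeks in the type 1 model was -1.94 ± 0.35 SE (adjusted p = 0.00779, edgeR). DESeq2 called 2 of these genes, beside 462 of 16707 genes in all. So did edgeR without libraries 4 and 5 of the 3-month eNOS-/- db/db group, beside 251 of 18347. At 3 months Itgb6 had 8.18, 7.65, 5.00, 12.8 and 12.8 scaled FPKM in eNOS-/- db/db libraries. In eNOS-/- libraries it had 12.9, 10.8, 8.24, 11.7 and 13.4, with overlapping groups (log2 change -0.31 ± 0.21 SE, adjusted p = 0.531). The models differ in eNOS genotype and in the cause of diabetes, which cannot be told apart. At the later times 0 of the 52 differed, beside 0.438% of all genes. An unadjusted p under 0.05 was found for 14, beside 15.1% of all genes. DESeq2 called 3, beside 470 of 16707 genes in all. The lowest p belonged to Itgb8 (log2 difference -0.66 ± 0.17, adjusted p = 0.0667). Side by side, the late log2 changes in the type 2 model at 6 months and in the type 1 model at 24 weeks were -1.21 ± 0.18 and -0.24 ± 0.24 for Itga3, -1.27 ± 0.23 and -0.14 ± 0.28 for Itgb5, and 1.90 ± 0.34 and 0.44 ± 0.28 for Itga5, with ages that also differ.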

How the data were processed

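The authors deposited raw read counts per gene and FPKM values for 37 mouse libraries; per the submitters' processing notes, cutadapt 1.16, STAR, FastQC and featureCounts 1.15.2 were used. The deposited FPKM equalled CPM per kilobase within 0.001 for 100% of values. The notes name mm9, but 99.981% of 31871 genes matched to GENCODE M21 overlapped their GRCm38 place. Strand use in counting: not given in the sources used here. The deposited count table also gives the gene lengths, in bases, used by the authors for FPKM.

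Counts were fitted with edgeR 4.0.16 in R 4.3.3 (TMM, default filter by group, robust quasi-likelihood F test), 1 fit per model (17180 and 16279 genes) and 1 of all 36 TRAP libraries (18511 genes). Ratios to kidney used CPM plus 0.5, a minimum of 1 CPM and exact 95% Poisson intervals, which cover counting error only since reads carry no molecular identifiers. Marker sums are TMM-scaled CPM. Alternatives used DESeq2 1.42.0, limma 3.58.1 on log2(FPKM + 0.1), other scalings, filters and fits, and each library left out. The main edgeR fits, but not the alternatives, ratios or marker sums, were tested on counts simulated with known changes and a common spread. Plots were drawn with matplotlib 3.10.9 in Python 3.11.15.

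The genes, the partner lists and the marker lists were chosen with earlier results of these data known. Genes named with values were every called one, the 10 most abundant in eNOS-/- podocytes, the 5 at each end of the kidney ratio with a mean of at least 10 CPM, and a fixed set of podocyte, epithelial and leukocyte members such as Itga3, Itgb1, Itgb6 and Itgam; genes of other lists were named by lowest p, up to 4 per comparison. Genes listed at an unadjusted p under 0.05 and the 7 genes enriched in TRAP that fell were named after their values were seen.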

Additional observations from a re-analysis of the deposited data

Results flagged for a closer look

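Itgb6, an epithelial beta integrin subunit, stood out because its diabetic effect differed between the models by a test of the difference itself: the log2 change at 3 months in the type 2 model minus that at 3 weeks of STZ was -1.94 ± 0.35 SE (adjusted p = 0.00779, edgeR's quasi-likelihood test over 18511 genes). Its log2 change was -0.31 ± 0.21 in the type 2 model at 3 months and 1.61 ± 0.28 in the type 1 model at 3 weeks, where it was higher in 5 of 5 STZ libraries than in any control. The difference lay between -2.36 and -1.78 and stayed called in all 28 alternatives.

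Dixon's 95% criterion was applied to the 56 combinations of a gene and a group of 4 or 5 libraries that were called or given library by library, and 5 held a library far from the others; chance gives about 1 in 20. Itgb5 in eNOS-/- db/db library 2 at 3 months had 213 scaled FPKM, beside 159 to 171 in the other libraries of the group. Itgax in eNOS-/- library 1 at 3 months had 0.22, beside 0.506 to 0.547. Itga3 in STZ library 4 at 3 weeks had 66.0, beside 44.4 to 49.3, and Itgb5 in library 1 with no STZ at 3 weeks had 284, beside 143 to 165. Itga3 in library 2 with no STZ at 24 weeks had 40.5, beside 74.6 to 82.7. None of these 5 lies in a comparison in which the gene was called.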

How the results depend on the processing

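Of the named gene values, 441 of 528 called ones kept their call in the alternatives and 87 lost it, while of the uncalled ones 461 stayed so, 36 became called and 3 changed sign. Those 3 were Itgam (-0.34), Itgax (-1.28) and Itgb2 (-0.64) at 3 months without both eNOS-/- db/db libraries 4 and 5. These genes were highest of their group in the libraries left out. That setting left 1 call of 4 at 3 months (418 of 16774 genes in all). It gave 21 for the difference between 6 and 3 months (2090 of 16774) and 2 for the early difference between models (251 of 18347). DESeq2 called 8 genes at 3 months (1252 of 15152 genes in all), 27 at 6 months (4878 of 17141) and 8 at 3 weeks (1735 of 16275). It called 3 for the difference between 6 and 3 months (576 of 13162). For the early and late differences between models it called 2 and 3 (462 and 470 of 16707). At 3 weeks limma on FPKM called 5 (1187 of 16279), all 36 TRAP libraries in one fit 5 (1636 of 18511), and the libraries of the contrast alone 1 (599 of 14441). At 6 months these settings called 25 (4327 of 17180), 19 (2957 of 18511) and 21 (2326 of 15676), and the fit with no filter on low counts 18 (3089 of 28343). With no filter on low counts the difference between 6 and 3 months had 1 call, beside 3 of 28343 genes in all. With 1 library left out at a time, calls ranged from 3 to 5 at 3 months, 11 to 34 at 6 months and 1 to 7 at 3 weeks. They stayed at 0 at 24 weeks. For the difference between 6 and 3 months they ranged from 0 to 14, and for the late difference between models from 0 to 1. Over all genes the calls ranged from 404 to 737 at 3 months, 1932 to 5350 at 6 months, 611 to 1350 at 3 weeks and 67 to 262 at 24 weeks. For these differences they ranged over all genes from 0 to 1911 and from 4 to 549. Upper-quartile scaling moved the median of all genes at 6 months to 0.08 and limma on FPKM to 0.16, beside -0.01. The cause of these shifts was not tested.

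Deviations of same-numbered libraries from their group means correlated with r of -0.12 to 0.26. Differently numbered libraries were not compared, so this cannot decide whether the numbers pair the samples. With the replicate block 8 genes were called at 3 weeks (1202 of 16279 genes in all) and 4 at 3 months (535 of 17180). Calls were 29 at 6 months (4104 of 17180), 0 at 24 weeks (157 of 16279) and 2 for the difference between 6 and 3 months (71 of 17180). Tspan10, with at most 6 counts in a library, did not pass the filter of the main fits. It was tested only with no filter on low counts, and its counts were too few to read a change.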
